A study of Mus musculus with 9 samples.

Results

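The genes described here are 10 that encode antimicrobial and inflammatory proteins of surface epithelium: S100a8, S100a9, Lcn2, Ltf, Slpi, Camp, Defb1, Lyz1, Wfdc2 and Pigr. They were chosen by symbol and were 10 of 18194 genes measured. All probe sets annotated to a single one of these symbols were read, 14 in all, and the brightest of each gene was used in the comparisons. The array data came from thymic cells in a study of mice with a ZsGreen reporter (ZsG, a green fluorescent protein) on a bacterial artificial chromosome at the start codon of Tslp, the gene of an epithelial cytokine. There were 3 groups of 3 arrays, named ZsG plus, ZsG minus mTEC and ZsG minus cTEC, where mTEC and cTEC are the usual abbreviations for medullary and cortical thymic epithelial cells. Per the labels' protocols, all groups had the C57BL/6 background, animals were 8 to 20 weeks old, and 5 ng of RNA was amplified per sample. How the cells were sorted is not given in the sources used here, nor whether ZsG plus cells came from cortex or medulla, nor whether the reporter-negative cells came from reporter animals. Each value is a probe set intensity, the brightness of a set of probes for a transcript, on the linear scale of the deposited table. Every sample is called keratinocytes in the cell type field; the titles were followed here instead. Nothing says that the 3 samples of a group came from separate animals, so a p-value reflects only how these samples vary, and that variation may be technical.

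Barrier epithelia secrete proteins that kill microbes or withhold metals from them, and neutrophils store several of the same proteins in granules. Many of these genes are induced in epithelium by interleukin 17, interleukin 22 and interleukin 1 through the transcription factors NF-kappaB and C/EBP. Medullary thymic epithelium is known for transcribing genes that are otherwise restricted to peripheral tissues, partly under the regulator Aire, so that developing T cells meet those proteins. The comparisons ask whether reporter-positive cells differ from the reporter-negative epithelial groups in these genes.

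The markers of each cell type were read first, as summed intensities on the authors' linear scale. Pan-epithelial markers summed to 192657 to 317758 across ZsG plus arrays, 150402 to 162607 across ZsG minus mTEC arrays and 101311 to 135480 across ZsG minus cTEC arrays. The medullary list summed to 64734 to 114416 in ZsG plus and 82631 to 95443 in ZsG minus mTEC, against 24758 to 32015 in ZsG minus cTEC. The cortical list summed to 52951 to 91597 and 60836 to 87005 in ZsG plus and ZsG minus mTEC, against 275229 to 330678 in ZsG minus cTEC. Both reporter-negative groups thus carried the markers of their labels, and the sums of ZsG plus and ZsG minus mTEC overlapped in both lists. Sums are weighted to bright genes, and single markers differed between these 2 groups. Of 9 cortical markers, ZsG plus had the lower mean log2 value for 7 and the higher for 2. Its arrays lay wholly below for 3 of the 9 and wholly above for 1. Of 9 medullary markers, 6 were lower and 3 higher by this mean, with 2 wholly below and 0 wholly above. Keratinocyte markers summed to 82025 to 139725 in ZsG plus and 60620 to 79395 in ZsG minus mTEC, but to 5416 to 10372 in ZsG minus cTEC. The ZsG plus arrays stood apart in some technical measures. Their median intensity was 230.3 to 316, against 366 to 424 on the other arrays. Genes varied more among them, with a median SD of log2 values of 1.30, against 0.63 among ZsG minus mTEC arrays and 0.61 among ZsG minus cTEC arrays. The hybridization controls, transcripts added at fixed amounts, averaged 49548 to 93872 in ZsG plus and 23872 to 40901 elsewhere. Gapdh signal at its 3' end over that at its 5' end was 6.71 to 10.6 in ZsG plus and 4.55 to 5.97 elsewhere. The part of these differences in the results was not tested.

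Differences are given on the log2 scale as the first-named group minus the second, with the SE of the fit after ±, and a fold is a ratio of geometric means over 3 arrays. None of the 10 genes passed the threshold (limma adjusted p under 0.05 over all 18194 genes) in any comparison. In the same fit, 0.22% of all genes passed for ZsG plus versus ZsG minus mTEC, 1.74% for ZsG plus versus ZsG minus cTEC and 0.627% between the reporter-negative groups, mTEC minus cTEC. At an unadjusted limma p under 0.05, 1 of the 10 genes was lower and 0 were higher in ZsG plus relative to ZsG minus mTEC, where 10.2% of all genes were lower and 3.2% higher. Of the 10, 3 were higher in ZsG plus relative to ZsG minus cTEC, against 7.44% of all genes, and 3 were higher in ZsG minus mTEC than in ZsG minus cTEC, against 8.4% of all genes. The median log2 difference of the 10 genes was -0.39 for ZsG plus versus ZsG minus mTEC, where the median of all genes was -0.33. It was 0.86 for ZsG plus versus ZsG minus cTEC (all genes -0.14) and 1.38 between the reporter-negative groups, mTEC minus cTEC (all genes 0.09). The last comparison had 9 of the 10 differences above 0, and the exception was Ltf. The 3 comparisons share their arrays in pairs, so their counts are not independent of each other. In RNA from pooled cells, fewer cells of a type and less RNA per cell cannot be told apart.

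**Figure D1:**
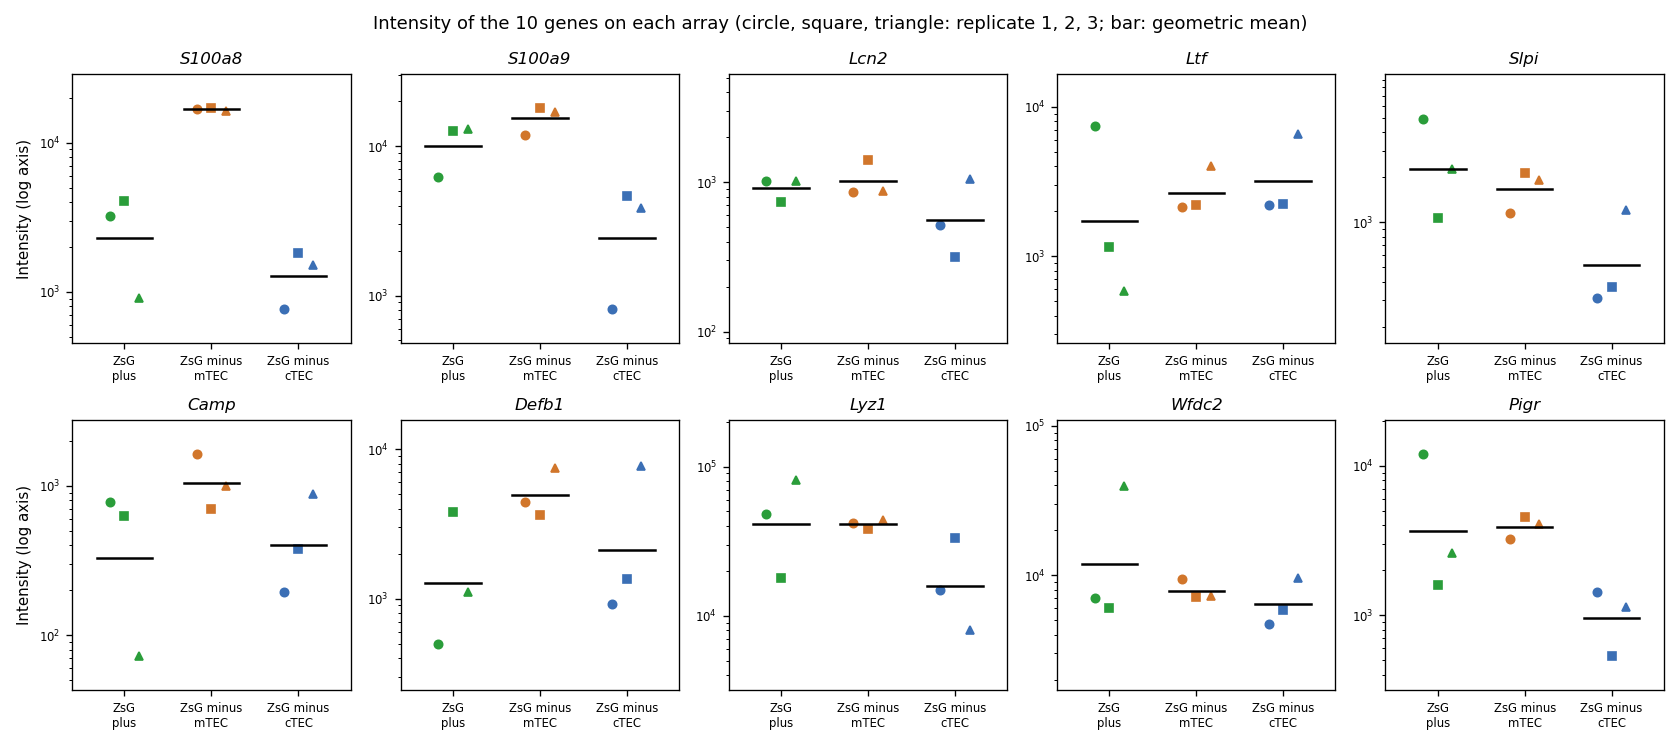
Intensity of each of the 10 genes (brightest probe set, log axis) on every array, with ZsG plus on the left, ZsG minus mTEC in the middle and ZsG minus cTEC on the right. Symbols mark replicate numbers and bars are geometric means of 3 arrays; the 3 ZsG minus mTEC arrays of S100a8 sit at 16393 to 17093, above all arrays of the other groups.

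S100a8 and S100a9 encode the subunits of calprotectin, a complex that withholds zinc and manganese from microbes and is abundant in neutrophils and in stressed squamous epithelium. Both lie on chromosome 3. In RefSeq on GRCm38.p6, S100a8 occupies chr3:90669071-90670034 and S100a9 occupies chr3:90692630-90695721. The 250 bases before each RefSeq start are shown because this neighbouring pair gave unequal readings across the groups. The S100a8 sequence is from the plus strand at chr3:90668821-90669070, and capitals mark a TATA box (TATAAA) at bases -30 to -25, counted back from the base before the start. The S100a9 sequence is from the minus strand at chr3:90695722-90695971, and capitals mark a C/EBP motif (TTGCNNAA) at bases -236 to -229.
S100a8: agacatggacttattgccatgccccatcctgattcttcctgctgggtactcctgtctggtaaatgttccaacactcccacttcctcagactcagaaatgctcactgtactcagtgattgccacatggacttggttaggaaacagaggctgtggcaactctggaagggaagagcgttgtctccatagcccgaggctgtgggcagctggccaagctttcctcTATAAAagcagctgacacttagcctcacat
S100a9: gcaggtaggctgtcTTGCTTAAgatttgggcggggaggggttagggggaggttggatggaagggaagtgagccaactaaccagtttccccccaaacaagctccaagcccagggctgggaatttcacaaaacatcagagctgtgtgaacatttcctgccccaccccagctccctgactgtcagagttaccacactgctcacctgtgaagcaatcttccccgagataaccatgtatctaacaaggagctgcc

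S100a8 had the lowest p of the 10 genes in 2 of the 3 comparisons. It read 3203, 4053 and 917 in ZsG plus, against 16809, 17093 and 16393 in ZsG minus mTEC and 767, 1829.9 and 1517 in ZsG minus cTEC. All 3 ZsG minus mTEC arrays were above every other array, while ZsG plus and ZsG minus cTEC overlapped. Its level in ZsG plus was 7.34-fold lower than in ZsG minus mTEC. The log2 difference was -2.88 ± 0.69 (SE, 95% interval -4.43 to -1.33, n = 3 each) with a limma p of 0.00222 and an adjusted p of 0.145. No other member had groups apart in this comparison, and over all genes 12.3% were fully lower in ZsG plus. The level of S100a8 in ZsG minus mTEC was 13.03-fold higher than in ZsG minus cTEC, a log2 difference of 3.70 ± 0.69 (95% interval 2.15 to 5.25). That difference ranked 130 of 18194 by p and had a limma adjusted p of 0.0559. Between ZsG plus and ZsG minus cTEC the log2 difference was 0.83 ± 0.69 (limma adjusted p = 0.551). Other settings moved the first 2 of these across the threshold. With arrays scaled to the hybridization controls, a setting chosen after seeing the data, which put the median of all genes at -1.43, S100a8 fell by 3.98 on the log2 scale in ZsG plus relative to ZsG minus mTEC (limma adjusted p = 0.0325). Without ZsG plus replicate 3, it passed between ZsG minus mTEC and ZsG minus cTEC (limma adjusted p = 0.0227), as it did under 8 other settings. But without any one of the 6 ZsG minus arrays that adjusted p was 0.123 to 0.201, and 0 of all genes passed there.

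S100a9 read 6167, 12600.1 and 12959.8 in ZsG plus, against 11888, 18063 and 16807 in ZsG minus mTEC and 809, 4661 and 3858 in ZsG minus cTEC. Unlike S100a8, its ZsG plus values overlapped those of ZsG minus mTEC and lay above all of ZsG minus cTEC. The log2 difference between ZsG plus and ZsG minus mTEC was -0.61 ± 0.75 (limma adjusted p = 0.742). Between ZsG plus and ZsG minus cTEC it was 2.04 ± 0.75 (95% interval 0.35 to 3.73, limma adjusted p = 0.191), a 4.11-fold higher level, and 1.24 without ZsG minus cTEC replicate 1, the array at 809. A single array weighed on many of these differences, since leaving 1 out moved the fold by over 1.5 times for 7 of the 10 genes in ZsG plus versus ZsG minus mTEC, for 9 in ZsG plus versus ZsG minus cTEC and for 3 between the reporter-negative groups. By the brightest probe sets, S100a9 and Pigr were the 2 members whose ZsG plus arrays all lay above ZsG minus cTEC, as did 9.9% of all genes. Between ZsG minus mTEC and ZsG minus cTEC the log2 difference of S100a9 was 2.65 ± 0.75 (limma adjusted p = 0.165). The members fully higher in ZsG minus mTEC than in ZsG minus cTEC were 4, namely S100a8, S100a9, Lyz1 and Pigr, against 16.6% of all genes. Lyz1 is counted there by its brightest probe set. In its dimmest set these groups overlapped, at 321 to 930 against 169 to 474.

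The log2 difference of S100a8 minus S100a9 within each array was -0.95, -1.64 and -3.82 in ZsG plus, against 0.50, -0.08 and -0.04 in ZsG minus mTEC and -0.08, -1.35 and -1.35 in ZsG minus cTEC. This quantity shows unequal change between the subunits and not their absolute ratio. It averaged -2.13 in ZsG plus against 0.13 in ZsG minus mTEC, and these 6 arrays did not overlap. The difference was -2.26 with a two-sided exact permutation p of 0.1, the smallest that 3 arrays against 3 allow. Against ZsG minus cTEC the difference of ZsG plus was -1.21 (exact permutation p = 0.4), and between the reporter-negative groups it was 1.05 (exact permutation p = 0.2). These 3 tests were not planned beforehand. They used the same arrays on which the unequal readings of the pair were seen, so they add no separate support. They were not adjusted for each other.

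**Figure D2:**
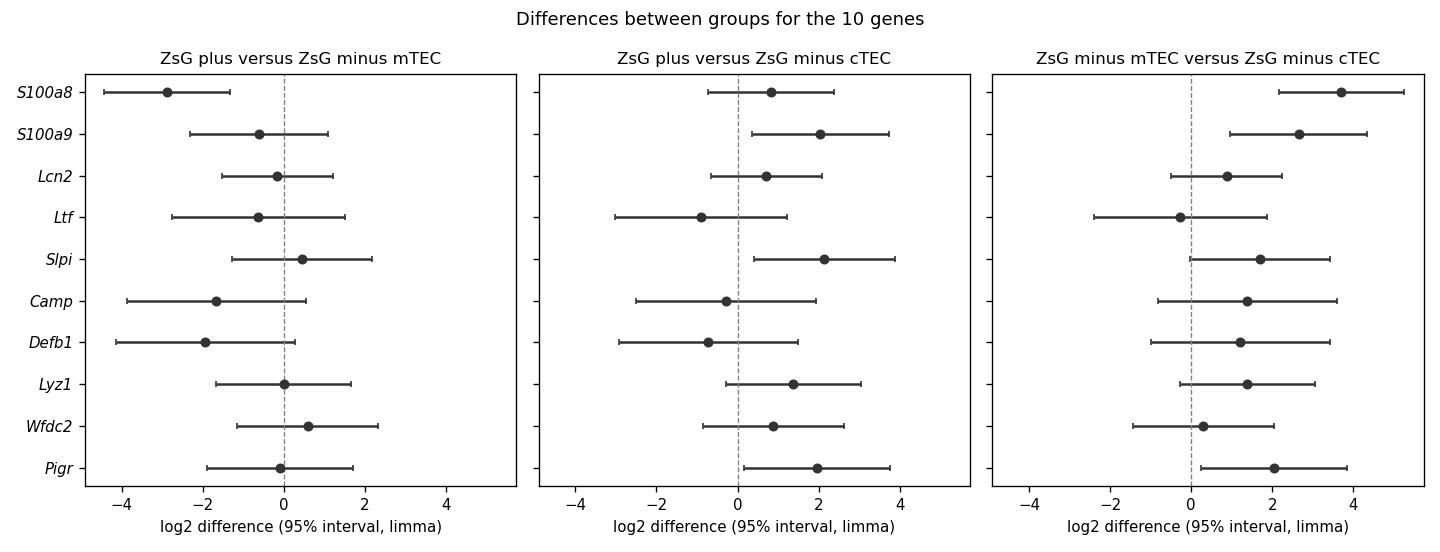
The log2 difference of each of the 10 genes in the 3 comparisons, the first-named group minus the second. Points are limma estimates and bars are 95% intervals; the interval of S100a8 lies below 0 in the left panel (-4.43 to -1.33) and above 0 in the right panel (2.15 to 5.25).

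Lcn2, Ltf, Camp and Defb1 encode proteins that starve or lyse bacteria. Lcn2 encodes lipocalin 2, which binds bacterial siderophores, and Ltf encodes lactoferrin, which binds iron. Camp encodes the cathelicidin precursor, and Defb1 encodes a beta-defensin made constitutively by many epithelia. Lcn2 read 1014, 734 and 1014 in ZsG plus, against 857, 1415 and 869.7 in ZsG minus mTEC and 519.8, 314 and 1052 in ZsG minus cTEC. All its groups overlapped, and the limma adjusted p was 0.560 to 0.931.

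Ltf read 7469.9, 1151 and 581 in ZsG plus, against 2125, 2209.6 and 3988 in ZsG minus mTEC and 2216, 2232 and 6585 in ZsG minus cTEC. Its SD in ZsG plus was 1.91 on the log2 scale, the highest of the 10 genes in any group by the probe sets used, and ZsG plus replicate 1 lay above all other arrays. Its log2 difference between ZsG plus and ZsG minus cTEC was -0.90 ± 0.95 (limma adjusted p = 0.643). Camp read 779.6, 627 and 72.1 in ZsG plus, against 1627, 705 and 993 in ZsG minus mTEC and 193, 377 and 879 in ZsG minus cTEC. The 72.1 of ZsG plus replicate 3 lay among the readings of the bacterial controls DapX and PheX (3.77 to 341 over all arrays). The ZsG minus cTEC value of 193 did too, though it was above the highest control on its own array (128). The log2 difference of Camp between ZsG plus and ZsG minus mTEC was -1.67 ± 0.98 (95% interval -3.88 to 0.54, limma adjusted p = 0.490), and -0.58 without ZsG plus replicate 3.

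Defb1 has 2 probe sets. The brighter read 495, 3818 and 1107 in ZsG plus, against 4401, 3622 and 7433 in ZsG minus mTEC and 915, 1347 and 7673 in ZsG minus cTEC. The other read 162, 1692 and 2171 in ZsG plus, against 3279.9, 1881 and 1958 in ZsG minus mTEC and 414, 446 and 1871 in ZsG minus cTEC. The 162 lay within the range of the bacterial controls over all arrays, though above the highest on its own array (144). In both, ZsG minus cTEC replicate 3 read far above replicates 1 and 2. In a fit over all 34958 probe sets, the log2 difference between ZsG plus and ZsG minus mTEC was -1.94 ± 0.99 in the brighter probe set (limma adjusted p = 0.425) and -1.45 ± 1.05 in the other (limma adjusted p = 0.566). Against ZsG minus cTEC the 2 probe sets disagreed in sign in that fit, at -0.73 ± 0.99 and 0.26 ± 1.05.

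Slpi and Wfdc2 encode small secreted proteins with whey acidic protein domains. Slpi inhibits neutrophil elastase and protects mucosae, and Wfdc2 is abundant in airway and reproductive epithelium. Slpi read 4896, 1074 and 2272 in ZsG plus, against 1151, 2128 and 1915 in ZsG minus mTEC and 312, 366 and 1214 in ZsG minus cTEC. Its level was 4.42-fold higher in ZsG plus relative to ZsG minus cTEC, a log2 difference of 2.14 ± 0.77 (95% interval 0.41 to 3.87, limma adjusted p = 0.180), and replicate 2 of ZsG plus overlapped replicate 3 of ZsG minus cTEC. Between ZsG minus mTEC and ZsG minus cTEC it was 1.69 ± 0.77 on the log2 scale (limma adjusted p = 0.415). Wfdc2 read 6981, 6036 and 39285 in ZsG plus, against 9409, 7147 and 7289 in ZsG minus mTEC and 4690.1, 5815 and 9632 in ZsG minus cTEC. ZsG plus replicate 3 stood far above the other 8 arrays, and without it the log2 difference between ZsG plus and ZsG minus mTEC was -0.28 in place of 0.59 ± 0.77.

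Pigr encodes the polymeric immunoglobulin receptor, which carries IgA and IgM across mucosal epithelium. Its brighter probe set read 11920.5, 1599 and 2594 in ZsG plus, against 3218, 4529 and 4073 in ZsG minus mTEC and 1425, 529 and 1136 in ZsG minus cTEC. Both ZsG plus and ZsG minus mTEC lay wholly above ZsG minus cTEC. The levels were 3.86-fold higher in ZsG plus relative to ZsG minus cTEC (log2 1.95 ± 0.80, limma adjusted p = 0.233) and 4.11-fold higher in ZsG minus mTEC (log2 2.04 ± 0.80, limma adjusted p = 0.328). Without ZsG plus replicate 1, the array at 11920.5, the first of these was 1.10. In the fit over all probe sets the brighter one gave 1.95 ± 0.82 and 2.04 ± 0.82 for the same comparisons, and the second gave 1.54 ± 0.73 and 1.66 ± 0.73. The ZsG plus arrays of the second read 5648, 1714 and 1051, of which the lowest overlapped the 1087, 790.2 and 487 of ZsG minus cTEC.

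Lysozyme cleaves the peptidoglycan of bacterial walls. In mice Lyz1 is the form of Paneth cells of the gut and Lyz2 is the form of macrophages and neutrophils. The genes are close in sequence, and the suffix _x_at of the brighter Lyz1 probe sets marks sets with probes that can bind other transcripts, so the share of Lyz2 in them cannot be told apart. The brightest Lyz1 probe set read 48041, 17808 and 80649 in ZsG plus, against 42171, 37869.5 and 43764 in ZsG minus mTEC and 14802, 33132 and 8025 in ZsG minus cTEC. Lyz2 read 35523, 19064 and 66337 in ZsG plus, against 39773, 31836 and 32954 in ZsG minus mTEC and 11779, 30493 and 6909 in ZsG minus cTEC. This Lyz1 set and Lyz2 were both highest on ZsG plus replicate 3 and lowest on ZsG minus cTEC replicate 3.

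The second _x_at probe set of Lyz1 read 43854, 11615 and 28602 in ZsG plus, against 37852, 35137 and 38503 in ZsG minus mTEC and 6466, 14298 and 4998 in ZsG minus cTEC. The third, without that suffix, read 984, 489.8 and 209 in ZsG plus, against 398, 321 and 929.7 in ZsG minus mTEC and 219.9, 169 and 474 in ZsG minus cTEC. It put replicate 3 of ZsG plus lowest of that group, where the brightest set put it highest, and several of its readings lay within the range of the bacterial controls. Between the reporter-negative groups (mTEC minus cTEC) the log2 difference in the fit over all probe sets was 1.38 ± 0.76 in the brightest set, 2.26 ± 0.69 in the second and 0.92 ± 0.78 in the third (limma adjusted p = 0.596, 0.243 and 0.803). For ZsG plus versus ZsG minus mTEC the brightest set gave -0.01 ± 0.74 in the fit over genes (95% interval -1.67 to 1.66).

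**Figure D3:**
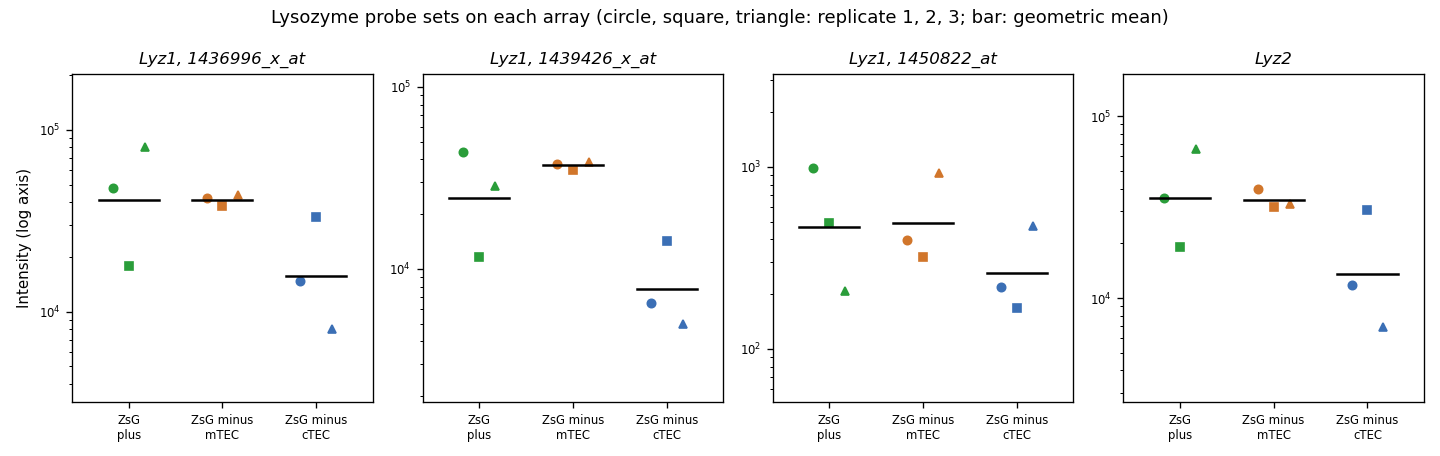
Intensity of the 3 Lyz1 probe sets and of Lyz2 on each array (log axis), with ZsG plus on the left and ZsG minus cTEC on the right of each panel; symbols mark replicates and bars are geometric means. The brightest Lyz1 set and Lyz2 share their highest array, ZsG plus replicate 3, while the third Lyz1 set reads 209 there.

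Likeness of pattern was described for the 2 brightest members, since no member passed the threshold, by Pearson's r of log2 intensity over the 9 arrays among 9087 genes at or above the median level. The arrays share their groups, so r is a description only. For Lyz1 the closest genes were Lyz2 (r = 0.987), Eif3c (0.952), a translation initiation factor subunit, and Rab11fip1 (0.936), a partner of the vesicle GTPase Rab11. For Wfdc2 they were Gtf2f1 (0.977) and Gtf2h3 (0.965), subunits of general transcription factors, and Tprn (0.968), which encodes taperin of hair cells. All 3 genes shared with Wfdc2 a maximum on ZsG plus replicate 3, at 20096, 10362 and 26610.

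The spread of the 10 genes within groups was set beside that of all genes, with no test. In ZsG minus mTEC the median SD of the 10 genes was 0.37 on the log2 scale against 0.63 for all genes, and 0 of the 10 lay above that median. S100a8 had an SD of 0.03 there. In ZsG minus cTEC the median SD was 0.97 against 0.61, and 9 of 10 lay above it, led by Defb1 at 1.63. In ZsG plus it was 1.32 against 1.30. Replicate 3 of ZsG minus cTEC was the highest of its group for Lcn2, Ltf, Slpi, Camp, Defb1 and Wfdc2, 6 of 10, where 36.3% of all genes were. Replicate 1 of ZsG plus was the highest of its group for Lcn2, Ltf, Slpi, Camp and Pigr, 5 of 10, where 32.5% of all genes were.

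The promoters of 9 of the 10 genes were in the RefSeq table, Defb1 being the exception. Over the 250 bases before each start, on both strands, the C/EBP motif TTGCNNAA was found in 5 of 9, against 9.55% of 27025 promoters of the same length. These matches are shown because no other motif searched was found in as many of the 9. Capitals mark the match, each sequence is given 5' to 3' on the strand of its gene, and the match of S100a9 is in the sequence above.
Lcn2, minus strand, chr2:32387932-32387971: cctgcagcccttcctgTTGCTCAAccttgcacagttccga
Ltf, plus strand, chr9:111019201-111019240: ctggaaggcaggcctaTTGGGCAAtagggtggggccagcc
Slpi, minus strand, chr2:164356725-164356757: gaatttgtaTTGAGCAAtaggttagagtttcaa
Lyz1, minus strand, chr10:117293054-117293093: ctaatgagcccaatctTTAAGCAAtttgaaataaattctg

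The matches lay at bases -216 to -209 in Lcn2, -75 to -68 in Ltf, -241 to -234 in Slpi and -209 to -202 in Lyz1, and those of Ltf, Slpi and Lyz1 were on the opposite strand. The TATA box of S100a8 was the only one among the 9, against 12.97% of all promoters. No match was found in the 9 windows for the AP-1 motif TGANTCA (6.87% of all promoters), the STAT motif TTCNNNGAA (7.18%) or the NF-kappaB motif (7.01%). A match is only a run of letters, and no overlap between the motifs was found in these windows.

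Related gene families were read next, leaving out the 10 genes above. Of 15 further S100 genes, 11 were measured and 0 passed the limma threshold in any comparison. At an unadjusted limma p under 0.05, 3 were lower in ZsG plus relative to ZsG minus mTEC. In ZsG plus relative to ZsG minus cTEC, 2 were higher and 1 lower. In ZsG minus mTEC, 5 were higher than in ZsG minus cTEC. Of all genes at this p, 3.2% were higher and 10.2% lower in the first comparison. In the second, 7.44% were higher and 2048 of 18194 lower. In the third, 8.4% were higher and 710 of 18194 lower. The counts of the lists that follow stand against these same shares. The median log2 difference of the 11 S100 genes was -0.77 for ZsG plus versus ZsG minus mTEC and 0.75 for ZsG plus versus ZsG minus cTEC. Between the reporter-negative groups, mTEC minus cTEC, it was 2.12. The medians of all genes were -0.33, -0.14 and 0.09. S100a10, the partner of annexin A2, read 3203, 8369.8 and 3788 in ZsG plus, against 32091, 27804 and 19055 in ZsG minus mTEC and 35109, 29098 and 27506 in ZsG minus cTEC. ZsG plus lay below both other groups, at -2.46 ± 0.57 and -2.70 ± 0.57 on the log2 scale (limma adjusted p = 0.131 and 0.0520). S100a14, expressed in many epithelia, read 6504 to 17674 across ZsG plus arrays, 24138 to 30694 across ZsG minus mTEC arrays and 2316 to 8726 across ZsG minus cTEC arrays.

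Of 14 further genes with whey acidic protein domains or grouped with them, 9 were measured and 0 passed in any comparison (0, 2 and 2 at an unadjusted limma p under 0.05, all higher), with medians of 0.03, 1.06 and 0.68 in the same order of comparisons. Wfdc18 read 64027, 26028 and 83377 in ZsG plus, against 63218, 64990.4 and 59672 in ZsG minus mTEC and 8055, 8666 and 16714 in ZsG minus cTEC. ZsG plus and ZsG minus mTEC both lay above every ZsG minus cTEC array, by 2.30 ± 0.62 and 2.57 ± 0.62 on the log2 scale (limma adjusted p = 0.101 and 0.106). Of 18 further beta-defensins, 15 were measured, 0 passed (1 lower, 3 higher and 4 higher at an unadjusted limma p under 0.05), and the medians were -1.35, 1.13 and 2.14. Defb6 read 1489, 2887 and 467 in ZsG plus, against 2385, 2842 and 2807 in ZsG minus mTEC and 130.0, 619 and 133 in ZsG minus cTEC. The 133 was under the highest bacterial control on its array (241), and the 130.0 was just above that on its own (128).

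The list of other mucosal antimicrobial genes held the only calls among the antimicrobial lists. Of 28 genes, 26 were measured. Against ZsG minus cTEC, 4 rose in ZsG plus and 2 rose in ZsG minus mTEC, where 1.74% and 0.627% of all genes passed. Between ZsG plus and ZsG minus mTEC 0 passed, against 0.22% of all genes. At an unadjusted limma p under 0.05, 1 was higher and 2 were lower in ZsG plus relative to ZsG minus mTEC. For ZsG plus versus ZsG minus cTEC 14 were higher and 0 lower, against 7.44% of all genes higher. Between the reporter-negative groups, mTEC minus cTEC, 16 were higher and 1 lower, against 8.4% of all genes higher. The medians of the 26 were -0.02 for ZsG plus versus ZsG minus mTEC, 1.82 for ZsG plus versus ZsG minus cTEC and 2.46 between the reporter-negative groups, mTEC minus cTEC.

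Saa1, which encodes an acute phase serum amyloid, read 21485, 17181 and 15131 in ZsG plus, against 18139.5, 17425 and 16562 in ZsG minus mTEC and 1626, 2428 and 2205 in ZsG minus cTEC. The first 2 groups overlapped and lay wholly above the third. Against ZsG minus cTEC, Saa1 rose by 3.11 ± 0.49 on the log2 scale in ZsG plus (limma adjusted p = 0.0267) and by 3.08 ± 0.49 in ZsG minus mTEC (limma adjusted p = 0.0422). Reg3b, a C-type lectin of the gut epithelium, read 2478, 1739 and 1559 in ZsG plus, against 1678, 2262 and 2059 in ZsG minus mTEC and 144, 163 and 322 in ZsG minus cTEC. It rose 9.60-fold in ZsG plus and 10.1-fold in ZsG minus mTEC against ZsG minus cTEC (limma adjusted p = 0.0319 and 0.0449), and each ZsG minus cTEC reading lay above the highest bacterial control on its own array, though within the range of these controls over all arrays.

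Reg3g, a lectin that binds Gram-positive bacteria, read 38698, 27480.3 and 50757 in ZsG plus, against 37592, 34619.5 and 28559 in ZsG minus mTEC and 4877, 3286 and 6089 in ZsG minus cTEC. It rose 8.21-fold in ZsG plus against ZsG minus cTEC (limma adjusted p = 0.0354), while ZsG minus mTEC was 7.25-fold above ZsG minus cTEC with a limma adjusted p of 0.0565. Dmbt1, a scavenger receptor protein of mucosal secretions, read 1231, 1234 and 5207 in ZsG plus, against 364, 811 and 200.0 in ZsG minus mTEC and 16.5, 26.7 and 55.8 in ZsG minus cTEC. Its groups did not overlap in any comparison. On the ZsG minus cTEC arrays all 3 readings were under the highest bacterial control, so the fold there is only a bound. Dmbt1 was at least 12.2-fold higher in ZsG plus relative to ZsG minus cTEC, with those readings set to the highest control on their array (limma adjusted p = 0.0180 on the values as read, 0.0206 with a floor of 100). Its log2 difference of 2.36 ± 0.83 against ZsG minus mTEC did not pass (limma adjusted p = 0.282). The number of calls in this list depended on single arrays, as did that over all genes. On simulated data with the spread of these groups, the fit called more unchanged genes than its threshold allows. There were 57 for ZsG plus versus ZsG minus mTEC, 70 for ZsG plus versus ZsG minus cTEC and 12 between the reporter-negative groups. That simulation was a single draw per comparison. It took each gene's SD over 3 arrays as its true spread, so it cannot show how many calls here were false. Without any one ZsG minus cTEC array 0 of the 26 passed between ZsG plus and ZsG minus cTEC, and without any one ZsG minus mTEC array 1 did. Between ZsG minus mTEC and ZsG minus cTEC, 0 passed without any one of those 6 arrays and 6 passed without ZsG plus replicate 3. Over all genes, 0 to 23 passed between ZsG plus and ZsG minus cTEC without a ZsG minus cTEC array, against 317 with all arrays. Between the reporter-negative groups 0 did without any one ZsG minus array, against 114. For ZsG plus versus ZsG minus cTEC, leaving out 1 array gave log2 differences of 2.94 to 3.23 for Saa1 and 3.04 to 3.62 for Reg3b.

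**Figure D4:**
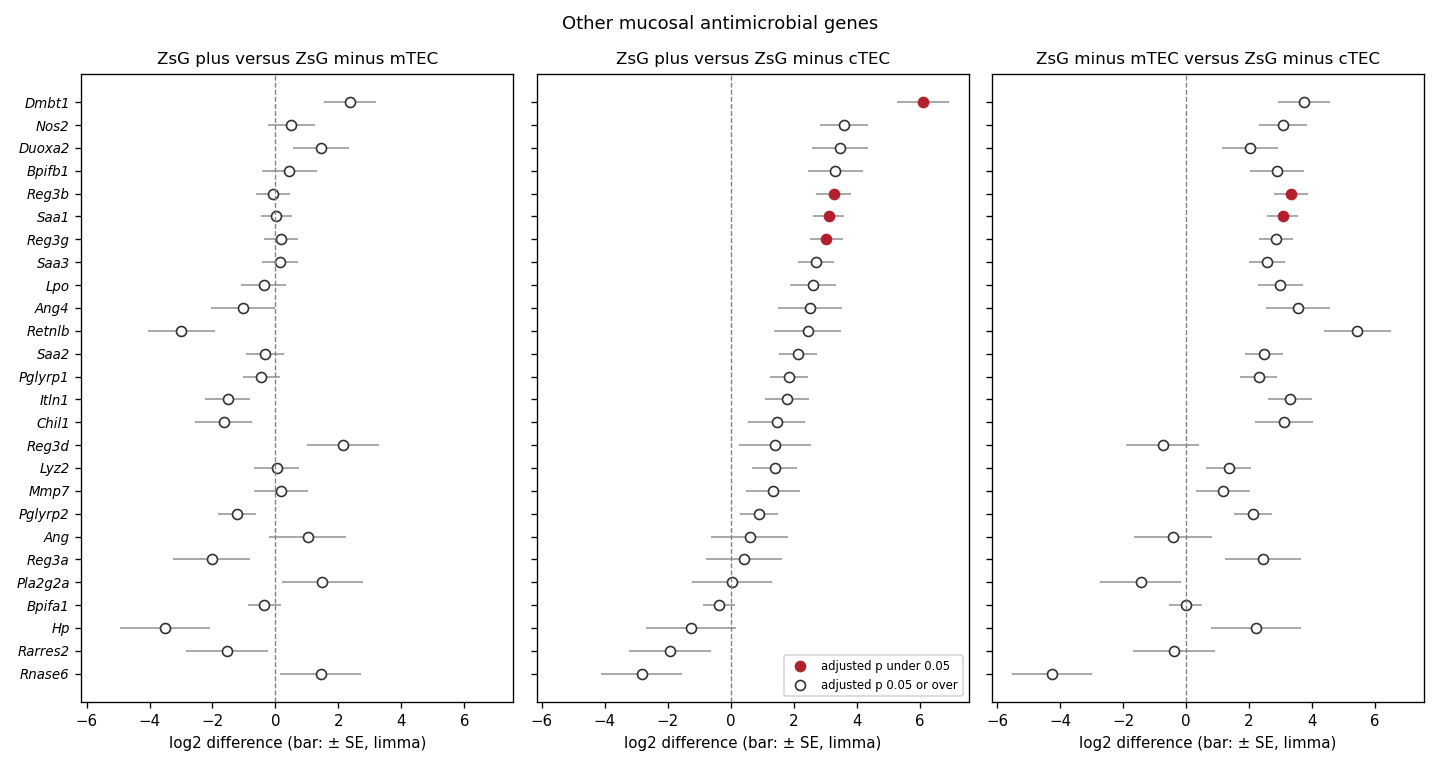
The log2 difference of the 26 measured genes of the mucosal antimicrobial list in the 3 comparisons, the first-named group minus the second, ordered by ZsG plus versus ZsG minus cTEC. Points are limma estimates, bars are ± SE and filled points had an adjusted p under 0.05; filled points number 0 in the left panel, 4 in the middle panel and 2 in the right panel.

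Genes that induce these proteins were read as well. Of 24 cytokines, receptors and transcription factors, 19 were measured and 0 passed in any comparison (1 lower, then 3 higher and 1 lower, then 1 higher and 2 lower at an unadjusted limma p under 0.05), with medians of -0.11, -0.07 and 0.12. Nfkbiz, an NF-kappaB cofactor of interleukin 17 responses, read 13424 to 26165 across ZsG plus arrays, 14094 to 17572 across ZsG minus mTEC arrays and 17728 to 19877 across ZsG minus cTEC arrays. Among 7 epithelial chemokines and factors that recruit neutrophils and related cells, Ccl20 passed in 1 comparison. Ccl20, a ligand of Ccr6, read 3217, 2432 and 1496 in ZsG plus, against 5351, 3170.3 and 3115 in ZsG minus mTEC and 505, 384 and 392 in ZsG minus cTEC. It rose 8.87-fold in ZsG minus mTEC against ZsG minus cTEC (limma adjusted p = 0.0491). That call was lost without any one of those 6 arrays (adjusted p = 0.123 to 0.186), where 0 of all genes passed. Ccl20 also missed the threshold under 4 other settings (0.0502 to 0.121). Its 5.37-fold higher level in ZsG plus relative to ZsG minus cTEC had a limma adjusted p of 0.0641. Cxcl1, a neutrophil attractant, read 69299.7, 50156 and 113246 in ZsG plus, against 39179.8, 42990.0 and 45024 in ZsG minus mTEC and 21820.0, 21536 and 34335 in ZsG minus cTEC, with a limma adjusted p of 0.174 to 0.688.

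Several of the 10 genes are also expressed by neutrophils, and neutrophil markers were read beside them. Of 20 such markers 16 were measured, and 0 passed in any comparison (2 higher and 3 lower, then 3 higher and 1 lower, then 4 higher and 1 lower at an unadjusted limma p under 0.05). Their median log2 differences were -0.36, 0.80 and 0.31 in the same order. Of the 16 markers, 7, 9 and 10 had differences above 0 and 9, 7 and 6 below. Their summed intensity was 4465 to 19432 across ZsG plus arrays, 11384 to 19033 across ZsG minus mTEC arrays and 3749 to 5238 across ZsG minus cTEC arrays. Within ZsG plus, replicate 3 had the highest marker sum, at 19432, with the lowest S100a8, at 917, and the highest S100a9, at 12959.8. Replicate 1 had the lowest marker sum, at 4465, and the lowest S100a9, at 6167. Mpo, the myeloperoxidase of neutrophil granules, read 737, 4920.2 and 5026 in ZsG plus, against 4443, 6609 and 5036 in ZsG minus mTEC and 261, 114 and 1574 in ZsG minus cTEC. The 114 was under the highest bacterial control on its array (142). Mpo was named as the brightest of the 16 and does not stand for the list. Between ZsG minus mTEC and ZsG minus cTEC, 6 of the 16 went the other way. Of the 16 markers, 2 were below the 95th percentile of the bacterial controls on all arrays, namely Ctsg, a granule protease, and Csf3r, the receptor of granulocyte colony-stimulating factor. Macrophage and dendritic cell markers summed to 16005 to 60354 across ZsG plus arrays, 6708 to 15326 across ZsG minus mTEC arrays and 12890 to 28294 across ZsG minus cTEC arrays, with the maximum on ZsG plus replicate 3, the array that was also highest for Lyz1 and Lyz2. Thymocyte markers summed to 6824 to 8733 in ZsG plus and 5833 to 9620 in ZsG minus mTEC, against 46688 to 61274 in ZsG minus cTEC. Fibroblast markers summed to 4139 to 25464 and 4196 to 7500 in ZsG plus and ZsG minus mTEC, against 34363 to 52919 in ZsG minus cTEC. The part of these other cells in the readings of the 10 genes was not tested.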

How the data were processed

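The 9 samples were hybridized to Affymetrix mouse arrays. The authors' deposited values were linear intensities of 45101 probe sets, made by software that the sources used here do not name. Each column averaged 1250.01 once 2% of its values was removed at either end, so the authors' intensities shared a trimmed mean. Only the 34958 probe sets annotated with a single symbol were used, which left out 932 with several symbols and 9211 with none.

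Values were log2-transformed without an offset, and the probe set with the highest mean stood for each of 18194 genes, with no filter on low values. The comparisons used limma 3.58.1 (R 4.3.3) with lmFit and eBayes and 1 coefficient per group over 9 arrays, which gave 6 residual and 3.28 prior degrees of freedom. Two-sided p-values were corrected over all genes (Benjamini-Hochberg), with a threshold of 0.05. The number of arrays limits the precision.

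The genes described, the related lists and the alternatives were chosen with earlier results of these data known. Named are all 10 genes, the called and brightest genes of each related list as far as a result turned on them, and for the brightest 2 of the 10 the 3 genes of most similar pattern. Replicate numbers were not taken as pairs, because nothing states that they mark a shared animal or day. For same-numbered arrays of different groups, r of deviations from group means was -0.0150 to 0.0132. For differently numbered arrays it was -0.0224 to 0.0114. A low r over all genes cannot exclude a shared animal or day. Fitting was tested on simulated data that kept each group's spread. There the fit recovered most of the largest changes and few of the smallest, and it called more unchanged genes than the threshold allows in all 3 comparisons. Each gene's SD over 3 arrays was taken as its true spread, with a single draw per comparison. The rate of false calls in the data is therefore not known from it. Promoters came from RefSeq on GRCm38.p6. Exact tests used scipy 1.17.1 and figures matplotlib 3.10.9.

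Each alternative altered a single step: all probe sets or the mean of a gene's probe sets, quantile normalization, centring on the median, a floor of 100, an offset of 50, a filter at the 40th percentile, only the 6 arrays compared, array weights, a mean-variance trend with robust fitting, the replicate number as a block, and leaving out each array. Scaling to the hybridization controls and reading Lyz1 by its dim probe set were added after seeing the data.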

Additional observations from a re-analysis of the deposited data

How the results depend on the processing

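The count of called members, 0 in each comparison, changed in 2 of them, and "called" here means a limma adjusted p under 0.05. For ZsG plus versus ZsG minus mTEC it was 1 with scaling to the hybridization controls, chosen after seeing the data. Between the reporter-negative groups it was 1, S100a8, with the mean of a gene's probe sets (adjusted p = 0.0379), quantile normalization (0.0313), a floor of 100 (0.0269), an offset of 50 (0.0207), the 40th percentile filter (0.0268), only the 6 arrays compared (0.0210) and the trend with robust fitting (0.0122), and 2 with array weights (S100a8 at 0.00428 and S100a9 at 0.0386). Leaving out 1 array gave 0 to 1. With the replicate block, where numbers are not shown to pair arrays, 0 members were called in each comparison, 0 of the mucosal genes were called against the original 4 and 2, and S100a8 had an adjusted p of 0.214 for ZsG plus versus ZsG minus mTEC and 0.124 between the reporter-negative groups.

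Over all genes, calls for ZsG plus versus ZsG minus mTEC numbered 40 and ranged over 0 (only the 6 arrays) to 712 (hybridization controls). For ZsG plus versus ZsG minus cTEC they numbered 317 and ranged over 0 (only the 6 arrays) to 1581 (hybridization controls). Between the reporter-negative groups they numbered 114 and ranged over 0 (replicate block) to 1220 (array weights). Leaving out 1 array gave 0 to 230, 0 to 735 and 0 to 304. Scaling to the hybridization controls put the median of all genes at -1.43, -1.29 and 0.04. The mucosal calls ranged over 0 to 7 for ZsG plus versus ZsG minus cTEC and over 0 to 15 between the reporter-negative groups.

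Of the differences that did not pass the threshold, some changed sign. For ZsG plus versus ZsG minus mTEC, quantile normalization gave 0.20 for Lcn2, -0.19 for Saa1, 0.063 for Reg3b and -0.093 for Reg3g, and the mean of probe sets gave -0.12 for Saa1. Centring on the median gave 0.37 for Lcn2, 0.53 for Lyz1, 0.45 for Pigr and 0.46 for Reg3b. The hybridization controls gave -0.65 for Slpi, -0.52 for Wfdc2, -1.07 for Saa1 and -0.92 for Reg3g. For ZsG plus versus ZsG minus cTEC, Camp was 0.23 with quantile normalization, 0.25 with centring and 0.34 with array weights, and the hybridization controls gave -0.33 for S100a8, -0.44 for Lcn2 and -0.27 for Wfdc2. Leaving out 1 array gave, for ZsG plus versus ZsG minus mTEC, -0.10 to 0.99 for Slpi, -0.11 to 0.15 for Saa1, -0.49 to 0.60 for Lyz1, -0.94 to 0.51 for Pigr, -1.70 to 0.14 for Ltf, -0.28 to 1.07 for Wfdc2, -0.27 to 0.065 for Reg3b, -0.033 to 0.41 for Reg3g and -0.28 to 0.077 for Lcn2. For ZsG plus versus ZsG minus cTEC it gave -0.91 to 0.81 for Camp and -1.51 to 0.20 for Defb1, and between the reporter-negative groups it gave -0.56 to 0.26 for Ltf. The cause was not tested. The fit shares 1 spread over the groups, while the ZsG plus arrays varied more than the others.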
